A study of Mus musculus with 11 samples.

Results

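The genes described here were 8 chemokine receptors, namely Ccr1, Ccr2, Cx3cr1, Cxcr4, Cxcr6, Ackr1, Ackr2 and Ackr3, out of 55487 annotated genes that were counted and 24177 that had enough reads to be tested. They were chosen on the genotype difference itself, because Ccr2 and Cxcr4 were lower in hearts without Pde2A while chemokine ligands and macrophage genes were higher. The differences given for these receptors, their ligands and the macrophage genes are therefore a description, and their p-values are not printed. Where such a gene is called past the threshold defined below, the call describes it beside all tested genes. It is no independent evidence, because the same genotype difference was used in the choice. RNA was sequenced from whole hearts of 5 Pde2A-/- embryos, written KO_A, KO_B, KO_14, KO_D and KO_15, and 6 Pde2A+/+ embryos, written WT_7, WT_11, WT_6, WT_8, WT_H and WT_E, with 1 library per heart. All hearts were taken at E14.5 from the same line, B6; 129P2-Pde2A<tm1Dgen>, and none was treated. The tm1Dgen allele is a germline knockout, so every cell of a Pde2A-/- embryo lacks the enzyme, and the embryos die before birth with a small liver and anaemia. The line carries 129P2 sequence in a B6 background, and litter, batch and the sex of single embryos are not given in the sources used here.

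Chemokine receptors are proteins of the cell surface that read gradients of small secreted ligands, the chemokines, and steer migrating cells through G proteins. Ccr1, Ccr2, Cx3cr1, Cxcr4 and Cxcr6 signal in this way, whereas the atypical receptors Ackr1, Ackr2 and Ackr3 bind chemokines without classical G protein signalling and take them up, carry them or hold them on the cell. In the embryonic heart, Cx3cr1 is carried by macrophages that settle early, Ccr2 by cells of the monocyte lineage that arrive later, and Cxcr4 with its ligand Cxcl12 takes part in the growth of the coronary vessels.

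A short stretch of the coding sequence shows how the receptors differ at a site that bears on signalling. It holds the so-called DRY motif, which lies at the inner end of a membrane helix and is needed for the coupling to G proteins. Each sequence below was read from the GENCODE M21 transcripts, runs 5′ to 3′, and has in capitals the 7 codons that align with the motif of Ccr2.
Ccr1: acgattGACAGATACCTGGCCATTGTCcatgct
Ccr2: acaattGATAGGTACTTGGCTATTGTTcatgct
Cx3cr1: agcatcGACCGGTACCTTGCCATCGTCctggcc
Cxcr4: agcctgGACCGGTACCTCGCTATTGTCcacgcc
Cxcr6: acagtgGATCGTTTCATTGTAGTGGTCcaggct
Ackr1: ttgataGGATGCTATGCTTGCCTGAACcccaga
Ackr2: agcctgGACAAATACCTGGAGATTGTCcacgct
Ackr3: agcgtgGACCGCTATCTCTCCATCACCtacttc
In Ccr1, Cx3cr1 and Cxcr4 all 7 codons encode the same residues as in Ccr2, although their bases differ. Ackr2 and Ackr3 share 5 of the 7 residues with Ccr2, more than the signalling receptor Cxcr6, which shares 3, so that the stretch does not divide the signalling from the atypical receptors. Ackr1 shares 1, the fewest of the members.

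Each heart gave from 35865537 to 42835382 reads on the sense strand of genes, and levels are given as CPM, counts scaled to a common library size, after TMM normalization, which evens out differences in library composition. Pde2a itself had 0 to 2 counts in each heart and 7 in all, which is too few to check the genotype labels. Reads shared between genes are in no count, so these values do not show that Pde2a is silent in Pde2A+/+ hearts. The gene Gm45837, looked up beside it, had 0 to 2 counts in each heart and 4 in all. Whether reads of Pde2a were left out because they are shared was not tested. The library WT_7 stood apart: its summed T-lineage genes reached 104 CPM and its summed thymus epithelium genes 105 CPM, against at most 2.80 and 0.340 CPM in the other Pde2A+/+ hearts, and the difference of each member is therefore given with and without it, as are the calls of other genes and the counts of lists that changed without it. Cardiomyocyte genes were abundant in all hearts, between 34908 and 46547 summed CPM. In whole hearts, fewer cells of a type and less RNA per cell cannot be told apart. Log2 fold changes are Pde2A-/- over Pde2A+/+ from the edgeR fit over all genes, with their standard error (SE), and a gene is called past the threshold at a Benjamini-Hochberg adjusted p under 0.05.

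All 8 members passed the filter on counts. Ccr1, Ackr1 and Ackr2 were past the threshold in the higher direction, where 8.93% of all tested genes were, and Ccr2 and Cxcr4 in the lower direction, where 5.67% were. Without WT_7 the same 5 genes were past it, at a background of 7.63% of genes higher and 3.57% lower. In 2 members, Ccr1 and Ackr1, every Pde2A-/- heart lay above every Pde2A+/+ heart, as did 5.38% of all genes, and in 2, Ccr2 and Cxcr4, every one lay below, as did 3.11%. The 8 log2 fold changes had a median of 0.16, against -0.02 for all genes. These shares follow from how the genes were chosen.

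**Figure D1:**
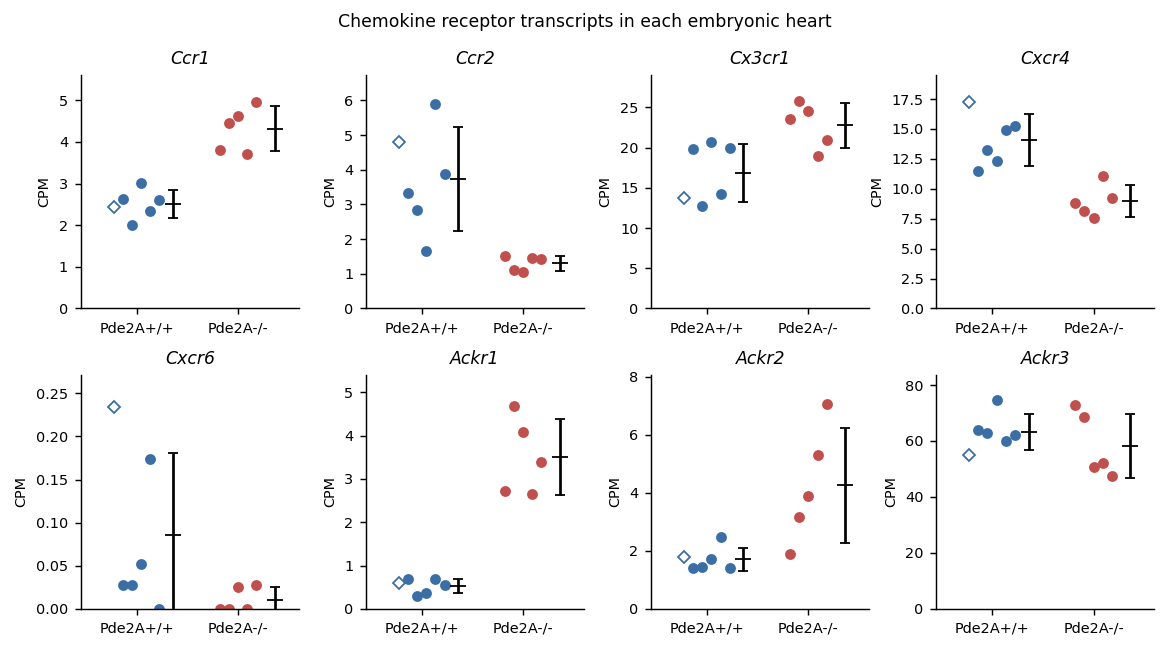
Level of each of the 8 receptors in CPM (vertical axes, starting at 0, each panel with its own scale) in the 6 Pde2A+/+ hearts (blue) and the 5 Pde2A-/- hearts (red). Each point is a heart, the open diamond is WT_7, and the black mark with its bar is the mean with the SD. The genotypes are apart in Ccr1, Ccr2, Cxcr4 and Ackr1 and overlap in the other panels.

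Ccr2, the receptor by which monocytes leave the bone marrow and enter tissue, was the signalling receptor with clear counts that differed most. Its level was 1.51, 1.11, 1.05, 1.44 and 1.43 CPM in KO_A, KO_B, KO_14, KO_D and KO_15, from 42 to 58 reads per heart. In the Pde2A+/+ hearts it ran from 1.65 CPM in WT_8 through a median of 3.60 to 5.89 CPM in WT_H, from 63 to 237 reads. The Pde2A-/- hearts lay close together, with a coefficient of variation of 16.4% against 40.0% in Pde2A+/+, and the highest of them lay just under WT_8. The level was 2.85-fold lower in Pde2A-/- hearts, a log2 fold change of -1.51 (SE 0.27), and -1.43 (SE 0.28) without WT_7. Some hearts are named by letters and others by numbers, a difference whose meaning is not given in the sources used here. Among hearts named by letters the log2 ratio of the means was -1.85, with 3 against 2 hearts, and among those named by numbers -1.35, with 2 against 4.

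Cxcr4, the receptor of Cxcl12, was the other receptor at a lower level. It stood at 8.82, 8.12, 7.56, 11.05 and 9.20 CPM in KO_A, KO_B, KO_14, KO_D and KO_15. In Pde2A+/+ hearts it ran from 11.5 CPM in WT_11 through a median of 14.1 to 17.3 CPM in WT_7. No Pde2A-/- heart reached WT_11, with KO_D nearest to it. The highest value thus belonged to the library that holds thymus genes, whose part in the level was not tested. The log2 fold change was -0.66 (SE 0.12), or 1.58-fold lower, and -0.59 (SE 0.11) without WT_7, when the highest Pde2A+/+ heart was at 15.3 CPM. The log2 ratio of the means was -0.69 among hearts named by letters and -0.70 among those named by numbers.

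Ccr1, a receptor of monocytes, macrophages and neutrophils for Ccl3 and related ligands, was higher in every Pde2A-/- heart. Its level was 3.81, 4.46, 4.63, 3.72 and 4.96 CPM in KO_A, KO_B, KO_14, KO_D and KO_15, and in Pde2A+/+ hearts it ran from 2.0 through a median of 2.51 to 3.005 CPM. The coefficient of variation was 12.4% in Pde2A-/- and 13.4% in Pde2A+/+ hearts. The level was 1.73-fold higher, a log2 fold change of 0.79 (SE 0.13), and 0.78 (SE 0.13) without WT_7.

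Cx3cr1, the receptor of fractalkine on resident macrophages, did not pass the threshold. It stood at 23.6, 25.8, 24.6, 18.98 and 20.9 CPM in KO_A, KO_B, KO_14, KO_D and KO_15, and in Pde2A+/+ hearts it ran from 12.8 through 17.0 to 20.7 CPM. In 4 of 5 Pde2A-/- hearts it lay above every Pde2A+/+ heart, and only KO_D fell within their range. The log2 fold change was 0.43 (SE 0.14) and 0.38 (SE 0.14) without WT_7.

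Cxcr6, the receptor of Cxcl16 on T cells and natural killer cells, was close to absent. It had 1 read each in KO_14 and KO_15 and none in the other 3 Pde2A-/- hearts, and 20 reads in all in Pde2A+/+ hearts. Of those 20 reads, 16 were in WT_7 and WT_H. The ratio of summed counts, Pde2A-/- over Pde2A+/+ at equal depth, was 0.119 with an exact 95% interval from 0.0135 to 0.491 that covers counting error only, and the gene was not past the threshold. Reads on the strand opposite to Cxcr6 numbered 19, or 46.3% of those on both strands. With reads of both strands counted the difference was smaller and again not past the threshold.

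Ackr1, the Duffy antigen, which holds chemokines on red cells and on the endothelium of small veins, differed more than any other member with clear counts. It stood at 2.71, 4.70, 4.08, 2.66 and 3.39 CPM in KO_A, KO_B, KO_14, KO_D and KO_15, and between 0.301 and 0.696 CPM in Pde2A+/+ hearts, with a median of 0.576. The lowest Pde2A-/- heart, KO_D, was thus well above the highest Pde2A+/+ heart, WT_H. The level was 6.55-fold higher, a log2 fold change of 2.71 (SE 0.23), and 2.75 (SE 0.25) without WT_7. On 25.7% of its exon bases the annotation also places Cadm3 on the same strand, and reads there are counted to neither gene.

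Erythroid genes moved with Ackr1. Of the 10 listed, 9 were higher in Pde2A-/- hearts and none lower, and their sum ran from 544 to 1100 CPM there against 126 to 524 CPM in Pde2A+/+ hearts. Slc4a1, which encodes the band 3 anion exchanger of the red cell membrane, was 7.02-fold higher. The log2 ratio of Ackr1 to Slc4a1 lay around -6.72 in Pde2A-/- hearts and around -6.57 in Pde2A+/+ hearts (medians), and its ranges overlapped. Of 10 endothelial genes 3 were higher, 2 without WT_7, and 1 lower, and their sum ran from 1325 to 1481 CPM in Pde2A-/- and from 1119 to 1335 CPM in Pde2A+/+ hearts. The part of either cell type in the Ackr1 level was not tested.

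Ackr2, a scavenger of inflammatory CC chemokines found on lymphatic endothelium, was past the threshold but varied widely. Its level was 1.91, 3.16, 3.88, 5.30 and 7.05 CPM in KO_A, KO_B, KO_14, KO_D and KO_15, and in Pde2A+/+ hearts it ran from 1.41 through 1.59 to 2.46 CPM. KO_A lay inside the Pde2A+/+ range, below WT_H, and the other 4 lay above it. The log2 fold change was 1.32 (SE 0.28), or 2.49-fold higher, and 1.33 (SE 0.30) without WT_7. Among 5 tested genes of lymphatic endothelium 2 were higher, Lyve1 by 0.98 (SE 0.23) and Flt4 by 0.36 (SE 0.08) on the log2 scale. The other 3, among them Prox1 at 0.29 (SE 0.11), were not past the threshold, and the median of the 5 was 0.29. The part of lymphatic endothelium in the Ackr2 level was not tested. Among hearts named by letters the log2 ratio of the Ackr2 means was 0.83, with overlap, and among those named by numbers 1.78, without overlap.

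Ackr3, which takes up Cxcl12 and so shapes the gradient that Cxcr4 reads, did not pass the threshold. It stood at 72.7, 68.5, 50.7, 52.1 and 47.4 CPM in KO_A, KO_B, KO_14, KO_D and KO_15 and ran from 55.1 through 62.5 to 74.6 CPM in Pde2A+/+ hearts. The Pde2A-/- hearts fell on both sides, with 3 under every Pde2A+/+ heart and KO_A and KO_B among the highest. The difference depended on the naming style of the hearts. Among hearts named by letters the log2 ratio of the means was 0.08, with overlap. Among those named by numbers it was -0.39, with every Pde2A-/- heart below every Pde2A+/+ heart. The log2 fold change was -0.11 (SE 0.11) and -0.15 (SE 0.12) without WT_7.

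The order of the receptors was read per kilobase of exon, the scale on which levels of different genes can be compared. In Pde2A+/+ hearts Ackr3 was highest, at 18.8 ± 1.93 CPM per kilobase (SD, n = 6), followed by Cxcr4 at 7.79 ± 1.18, Cx3cr1 at 3.75 ± 0.807, Ccr1 at 0.882 ± 0.119, Ccr2 at 0.552 ± 0.221, Ackr2 at 0.546 ± 0.129, Ackr1 at 0.379 ± 0.117 and Cxcr6 at 0.0445 ± 0.0493. Neighbours from Ccr1 down to Ackr1 overlapped between hearts, and the others did not. The length of Ackr1 includes the 25.7% of its exon bases shared with Cadm3, where reads are counted to neither gene. Its level per kilobase is thus a lower bound, and its place in the order may be too low. In Pde2A-/- hearts Cxcr4, at 4.95 ± 0.736 (SD, n = 5), overlapped with Cx3cr1, at 5.06 ± 0.615 CPM per kilobase. Ackr1 followed there, at 2.50 ± 0.626, above Ccr1 in all 5 hearts, and Ccr2 was next to last at 0.194 ± 0.0318.

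The 17 other receptors of the family and its relatives were not used to choose the members. Their list was, however, written with earlier results of these data known, so it is not blind to them. Of these receptors 13 were tested, of which 3 were higher and 1 lower. Their median log2 fold change was -0.60, which became -0.05 with near-absent genes held at 3 counts per heart. Without WT_7 the sign of the median turned, to 0.13, with 11 tested, 2 higher and none lower. Ccrl2, a relative that binds chemerin and presents it to other cells, was at 4.07, 5.10, 5.25, 7.11 and 7.05 CPM in KO_A, KO_B, KO_14, KO_D and KO_15 and at 2.03 to 3.05 CPM in Pde2A+/+ hearts. The genotypes did not overlap, and the log2 fold change was 1.22 (SE 0.16, edgeR adjusted p = 0.000387).

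Cmklr1, the signalling receptor of chemerin, was higher by 0.38 (SE 0.11) on the log2 scale, and Gpr182, an endothelial scavenger of chemokines, by 0.32 (SE 0.10), with genotypes that overlapped in both. The edgeR adjusted p of Gpr182 was 0.0498, and 0.0924 without WT_7. Ccr8, a receptor of T cells, was called lower on 5 reads in all Pde2A-/- hearts and 43 in Pde2A+/+ hearts, 22 of them in WT_7, and was not past the threshold without that library. Ackr4, the atypical receptor of Ccl19, Ccl21 and Ccl25, was at -0.60 (SE 0.21) and not past the threshold.

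**Figure D2:**
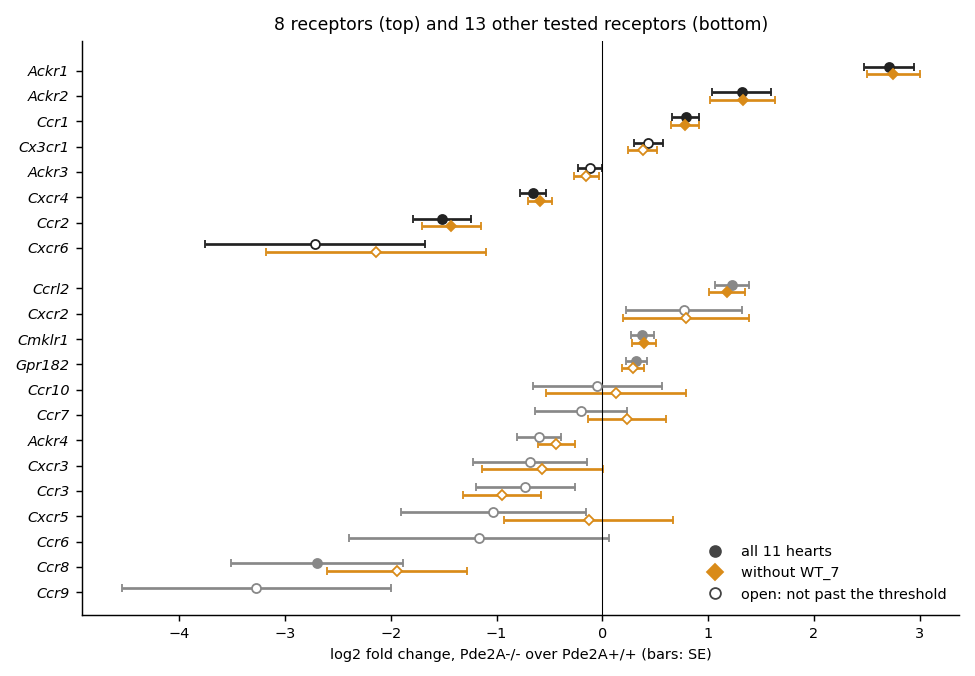
Log2 fold change of Pde2A-/- over Pde2A+/+ (horizontal axis, bars are the SE) for the 8 receptors (upper group, black) and the 13 other tested receptors (lower group, grey). Circles are the fit to all 11 hearts, orange diamonds the fit without WT_7, and open symbols are not past the threshold. Cxcr6, Ccr6, Ccr8 and Ccr9 rest on few reads, and for these the position depends on the fit; Ackr1, Ackr2 and Ccrl2 lie on the right, Ccr2 and Cxcr4 on the left.

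Ccr2 lies in a cluster of receptor genes on chromosome 9, and 5 of the 8 members are on that chromosome and 3 on chromosome 1. Ccr2 spans chr9:124101950-124113557 on the plus strand of GRCm38 and Ccr1 spans chr9:123962124-123968692 on the minus strand. The annotated start of Ccr1 is 133 kb to the left of that of Ccr2. Of 30 annotated genes considered within 500 kb of Ccr2, 15 were tested, of which 2 were higher, Ccr1 and Slc6a20a, and 1 was lower, Ccr2. Slc6a20a had 1 read in all Pde2A+/+ hearts and at most 6 in a Pde2A-/- heart. The better expressed genes that are no receptors lay near 0, with Fyco1 at 0.04 (SE 0.07), Lztfl1 at -0.08 (SE 0.05) and Ppp2r3d at -0.03 (SE 0.07) on the log2 scale and none past the threshold.

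The coding sequences of Ccr2 and Ccr1 are identical at 63.1% of 1049 aligned bases, with no shared stretch over 16 bases. The median log2 ratio of Ccr2 to Ccr1 was -1.79 for Pde2A-/- and 0.55 for Pde2A+/+, without overlap. The genotypes lay apart in each of these genes, in opposite directions, so the ratio was bound to separate them. Reads on the strand opposite to Ccr2 numbered 14, or 1.23% of those on both strands.

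**Figure D3:**
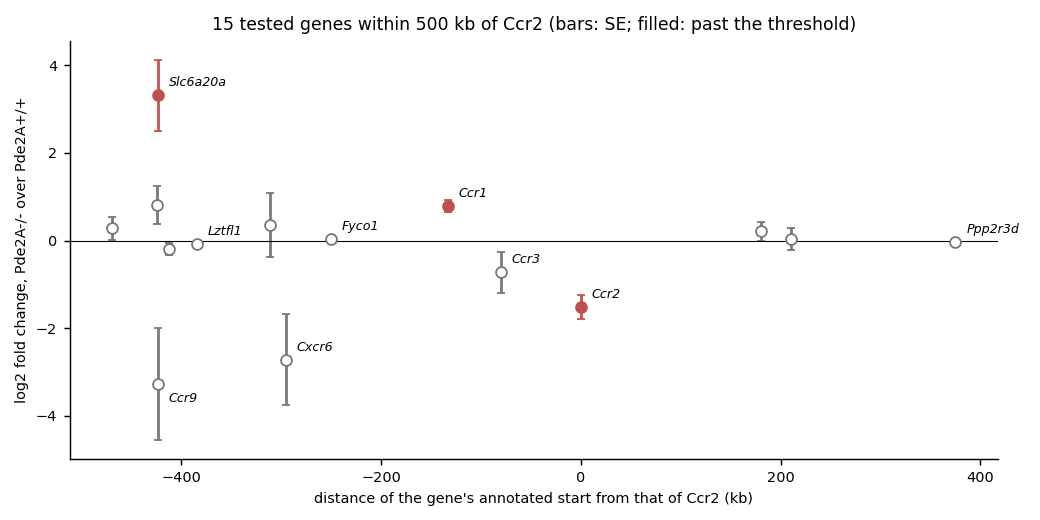
Log2 fold change of Pde2A-/- over Pde2A+/+ (vertical axis, bars are the SE) for 15 tested genes within 500 kb of Ccr2, against the distance of each gene's annotated start from that of Ccr2 in kilobases (horizontal axis). Filled points are past the threshold: Ccr1 lies above 0 and Ccr2 below it, and Slc6a20a rests on a few reads.

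The promoters were searched for 3 motifs in RefSeq windows of 300 bases on GRCm38.p6, 250 before and 50 after the start site, on both strands. The GATA motif of erythroid and endothelial factors (searched as AGATAA and likewise as AGATAG, with TGATAA and finally TGATAG counted as well) was found in Ackr1, Ccr2 and Cx3cr1 and is in 29.8% of all 32851 windows. The core of the hypoxia response element (ACGTG, with GCGTG counted as well) was found in Ccr1, Cx3cr1, Cxcr4 and Ackr3 and is in 43.8% of windows. The palindromic cAMP response element (TGACGTCA), which is in 1.79% of windows, matched no member. The matches in the members past the threshold are shown 5′ to 3′ on the strand of the gene, with the matched letters, or their reverse complement, in capitals.
Ackr1, chr1:173333461-173333490, minus strand: agccctgggcacTTATCTtggagccacagc
Ccr2, chr9:124102074-124102103, plus strand: tcacttgctcttTTATCTccgccttctctt
Ccr2, chr9:124102162-124102191, plus strand: ctgagaagcctgAGATAGcagtgccatcat
Ccr1, chr9:123968701-123968729, minus strand: gccctacatttaCACGCccacacacatca
Cxcr4, chr1:128592322-128592350, minus strand: gccgccccgggaGCGTGtttttataaaag
Both Ackr1, which was higher, and Ccr2, which was lower, held a GATA match. A match says only that these letters are present.

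The ligands of the receptors are given next to them, and they too entered the choice. Of the 12 ligands named for the members, 11 were tested, 6 were higher and 1 was lower. Ccl2, the main ligand of Ccr2, was at 9.39, 6.58, 21.2, 10.6 and 13.5 CPM in KO_A, KO_B, KO_14, KO_D and KO_15 and at 1.54 to 3.55 CPM in Pde2A+/+ hearts. The genotypes lay apart, with a 5.06-fold higher level and a log2 fold change of 2.34 (SE 0.28). Ccl7, which binds Ccr2 and Ccr1, was at 2.12 (SE 0.30), and Ccl12, another ligand of Ccr2, at 1.86 (SE 0.34), both past the threshold and without overlap. Ccl8 was not tested, with 1 read in all.

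Ligands of Ccr1 pointed the same way as the receptor. Ccl9 was higher by 1.15 (SE 0.19) and Ccl6 by 0.84 (SE 0.26) on the log2 scale. Ccl6 overlapped between the genotypes and was not past the threshold without WT_7, at 0.76 (SE 0.27). Ccl3 was at 1.58 (SE 0.67) and Ccl5 at 0.27 (SE 0.83), and neither was past the threshold. Cxcl16, the membrane-bound ligand of Cxcr6, was 2.29-fold higher, at 10.9 to 16.7 CPM against 5.50 to 7.39 CPM, although its receptor was near 0 in both genotypes.

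Cxcl12 and fractalkine, which stromal and endothelial cells make, were not among the higher ligands. Cxcl12 was at 153, 137, 109, 144 and 139 CPM in KO_A, KO_B, KO_14, KO_D and KO_15 and ran from 131 to 207 CPM in Pde2A+/+ hearts, the highest being WT_7, and its log2 fold change of -0.28 (SE 0.12) was not past the threshold. The log2 ratio of Cxcr4 to Cxcl12 lay at -3.92 and -3.55 (medians of Pde2A-/- and Pde2A+/+), and its ranges overlapped. Cx3cl1, fractalkine, had a log2 fold change of -0.38 (SE 0.12), past the threshold with genotypes that overlapped, and was not past it without WT_7. Cxcl11, the other ligand of Ackr3, had 20 reads in all Pde2A-/- hearts and 7 in Pde2A+/+ hearts and was not past the threshold.

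**Figure D4:**
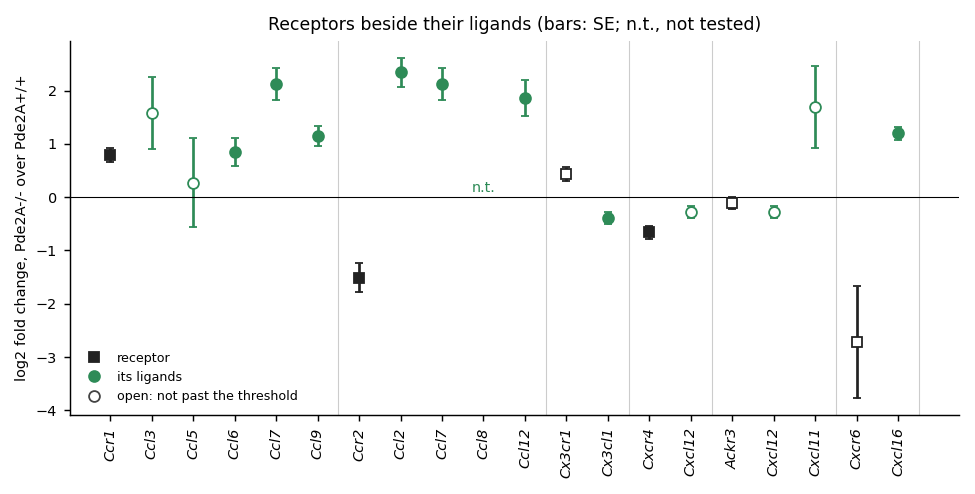
Log2 fold change of Pde2A-/- over Pde2A+/+ (vertical axis, bars are the SE) for 6 receptors (black squares), each followed by its ligands (green circles). Open symbols are not past the threshold and n.t. marks Ccl8, which was not tested; Cxcr6 and Cxcl11 rest on few reads, and their position depends on the fit. The ligands of Ccr2 lie above 0 and the receptor below it, whereas Ccr1, Ccl6, Ccl7 and Ccl9 all lie above 0.

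Over the whole lists, 6 of 16 tested CC chemokines were higher, 5 without WT_7, and none lower, the largest differences being Ccl2, Ccl7, Ccl4 at 1.97 (SE 0.51), Ccl12 and Ccl9. Of 16 tested chemokines of the CXC, CX3C and XC classes 6 were higher and 1 lower, and without WT_7, of 15 tested, 7 and none. Cxcl1, which draws neutrophils, was at 2.45 (SE 0.43), Cxcl10, induced by interferon, at 1.67 (SE 0.45), and the platelet chemokines Ppbp and Pf4 at 1.81 (SE 0.25) and 1.24 (SE 0.16) on the log2 scale. Cxcl5 was called on 26 reads in all Pde2A-/- hearts against 4 in Pde2A+/+ hearts. The median log2 fold changes of these lists, 0.89 and 0.93, became 0.57 and 0.62 with near-absent genes held at 3 counts per heart.

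Macrophage genes were the setting in which the receptors were read. Of 15 macrophage genes 12 were higher, 11 without WT_7, and none lower, with a median log2 fold change of 0.91, and their sum was 456 to 572 CPM in Pde2A-/- and 268 to 357 CPM in Pde2A+/+ hearts. The largest single part of the sum was Stab1, at 237 to 290 CPM in Pde2A-/- and 147 to 189 CPM in Pde2A+/+ hearts. The log2 ratio of Ccr1 to that sum lay at -6.90 in Pde2A-/- against -7.00 in Pde2A+/+ hearts (medians), and that of Cx3cr1 at -4.51 against -4.24, with overlap in both. The ratio of Ccr2 had medians of -8.64 and -6.53, 4.33-fold lower, and that of Cxcr4 -5.96 and -4.43, 2.88-fold lower. In both of these every Pde2A-/- heart lay under every Pde2A+/+ heart. That separation was given in advance, because both genes were lower and the macrophage sum higher in every Pde2A-/- heart. The genes were chosen on this difference, and the ratios only describe its size.

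With Ptprc, the common leukocyte antigen CD45, in place of the macrophage genes, the ratio of Ccr2 was 5.78-fold lower and the genotypes remained apart, while that of Cxcr4 was 3.32-fold lower with overlap, which came from WT_7 alone. In WT_7 Ptprc was at 16.6 CPM against at most 4.62 CPM in the other Pde2A+/+ hearts. The F4/80 gene Adgre1 as denominator gave 5.14-fold for Ccr2 and 2.86-fold for Cxcr4, both without overlap. Adgre1 is itself among the macrophage genes, and Ccr2 and Cxcr4 were chosen as lower. These ratios are therefore no independent check.

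**Figure D5:**
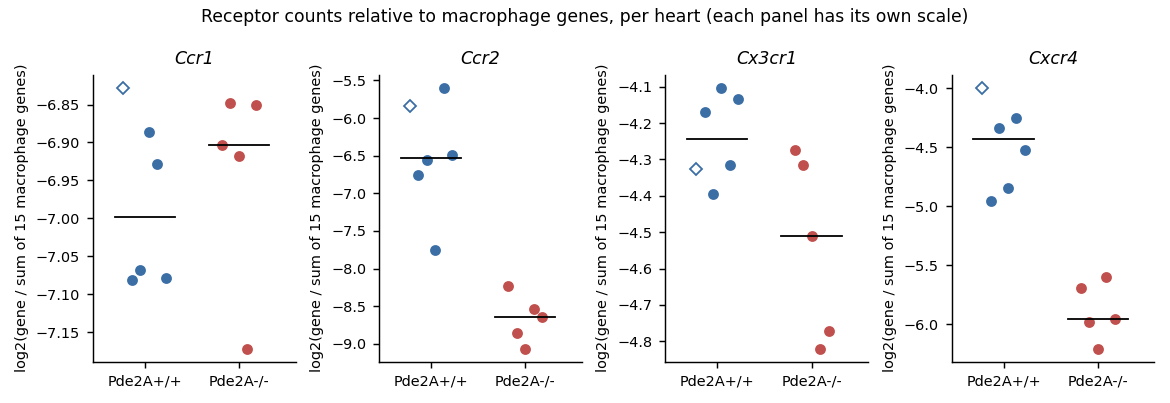
Log2 ratio of Ccr1, Ccr2, Cx3cr1 and Cxcr4 to the summed CPM of 15 macrophage genes (vertical axes, each panel with its own scale) in the Pde2A+/+ hearts (blue, WT_7 as an open diamond) and the Pde2A-/- hearts (red). Bars are medians: Ccr1 and Cx3cr1 overlap between genotypes, whereas Ccr2 and Cxcr4 lie lower in every Pde2A-/- heart. The separation of Ccr2 and Cxcr4 follows from how the genes were chosen.

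Markers of monocytes, cells that carry Ccr2, were scarce. Of 5 tested, none was past the threshold, and without WT_7 Fcnb was, at 2.26 (SE 0.61) on the log2 scale. Their summed level was 3.42 to 7.08 CPM in Pde2A-/- hearts and 1.23 to 3.59 CPM in Pde2A+/+ hearts other than WT_7, where it was 22.1 CPM, 21.04 of them from Plac8. Ly6c2, which defines inflammatory monocytes, had at most 15 reads in a heart, and Chil3 at most 3. Of 7 neutrophil genes 5 were higher and none lower, and the sum was 19.6 to 54.0 CPM in Pde2A-/- against 1.23 to 8.55 CPM in Pde2A+/+ hearts. The part of these cells in the receptor levels was not tested.

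Of 20 genes that act behind the receptors in signalling, 17 were not past the threshold, 2 were higher and 1 lower, with a median log2 fold change of 0.05. Over all 11 hearts these counts are near the shares of all tested genes, 8.93% higher and 5.67% lower. The list as a whole therefore does not stand out. Arrb1, the beta-arrestin that takes receptors off the surface, was at 98.3 to 134 CPM in Pde2A-/- and 64.0 to 74.2 CPM in Pde2A+/+ hearts, without overlap and with a log2 fold change of 0.71 (SE 0.07, edgeR adjusted p = 5.28e-05). Rgs2, which shortens G protein signals, was at 0.43 (SE 0.07, edgeR adjusted p = 0.00245). Gnai1, an inhibitory G protein subunit, was at -0.21 (SE 0.06, edgeR adjusted p = 0.0400). Without WT_7 the leukocyte genes Rac2, Dock2 and Rgs18 were past the threshold as well, and in that library Rac2 stood at 16.9 CPM against at most 5.07 CPM in the other Pde2A+/+ hearts.

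Genes that varied most like a member from heart to heart were sought among 14023 genes of at least 1 CPM, by Pearson's r of log2 CPM after removing the mean of each genotype, over 11 hearts that share libraries and depth with the gene compared. For Ccr2 these were Nfat5 (r = 0.966), Stfa1 (r = 0.951) and Vps4b (r = 0.951), and Nfat5 was first again without WT_7 (r = 0.983). For Cxcr4 they were Mblac2 (r = 0.926), Pdgfrb (r = 0.916) and Snhg14 (r = 0.884), and without WT_7 Gsk3b, Ebf1 and Mblac2. For Ackr1 they were Trim56 (r = 0.937), Tmem40 (r = 0.937) and 1300017J02Rik (r = 0.928), and for Ccr1 F13a1 (r = 0.874), Rplp0 (r = 0.873) and Tfpi2 (r = 0.864). For Cx3cr1 they were Akt2-ps (r = 0.927), Pomt2 (r = 0.923) and Grin2a (r = 0.915), for Ackr2 Babam2 (r = 0.947), Wdr91 (r = 0.937) and Nhlrc3 (r = 0.936), and for Ackr3 Hspa13 (r = 0.952), Ttc13 (r = 0.947) and Gna11 (r = 0.945). The names depended on the hearts used: without WT_7, 1 of the 3 genes was shared for Ccr2, Cx3cr1, Cxcr4 and Ackr3, and none for Ackr2. Each r is among the highest of 14023 over 11 hearts, so high values can arise by chance, and none was tested.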

How the data were processed

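Single-end reads from stranded mRNA libraries of 11 embryonic hearts had been mapped to GRCm38 with STAR by the authors, and the deposited values are counts of reads per gene, without normalization or filter, for both strands together and for each strand; a read on more than 1 gene, or with several places in the genome, is in none. The version of STAR is not given in the sources used here. The sense strand was used. Names, positions and exon lengths came from GENCODE M21, which matched 55141 of 55487 identifiers. Between 19.6% and 22.4% of reads per heart were counted to no gene and left out. This share takes in reads that did not map or mapped to several places, beside those on no single gene.

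Genes with at least 10 counts in total were tested with edgeR 4.0.16 (R 4.3.3), with TMM and the quasi-likelihood test, Benjamini-Hochberg adjusted over 24177 genes. The fit was tested on simulated data. Where no heart of a genotype had over 3 counts, the counts are given in place of a fold. The p-values set the genotype difference against the spread between embryos, which the fit estimates with information shared across genes. Litter and batch are not known, so the embryos may not be independent of each other. Alternatives were DESeq2 1.42.0, which the study used, its size factors, filterByExpr, no filter, reads of both strands, the naming style of the hearts as a covariate, a fold change of at least 2, the longest transcript as length, other denominators and each heart left out. Coding sequences were taken as the longest open frame of each transcript. Summaries used pandas 2.3.3 and numpy 2.4.6 under Python 3.11.15, and plots matplotlib 3.10.9.

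The members and lists were chosen with earlier results of these data known. The genes named are the 8 members, their ligands, the 5 largest differences past the threshold in each list of receptors, ligands and signalling genes, and the 3 genes most like each member; further genes, among them the neighbours of Ccr2, Slc4a1, Ptprc, Ackr4, Rac2, Dock2, Rgs18 and the cell markers, were named after their values were seen. Results that need 1 further gene are not reported here, and it is left out of the lists and of the neighbours of Ccr2.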

Additional observations from a re-analysis of the deposited data

Results flagged for a closer look

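In 50 groups of hearts the highest or lowest value was compared with the others by Dixon's gap, and 5 stood apart, where chance gives about 5% of groups. The gap was taken on the log2 scale, while the values below are printed in CPM. Which groups stand apart can depend on that scale. In the Pde2A+/+ group WT_7 was the high one for the summed T-lineage genes, at 103.8 CPM, for the thymus epithelium genes, at 104.5 CPM, for the monocyte genes, at 22.1 CPM, and for the CC chemokines, at 36.2 CPM with the next heart at 19.5 CPM. The CC sum of WT_7 held 24.2 CPM of Ccl25, a chemokine made by thymus epithelium. In the Pde2A-/- group KO_14 was the low one for the CXC, CX3C and XC chemokines, at 156.3 CPM with the next heart at 184.6 CPM. No single member had a heart that stood apart in this way.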

How the results depend on the processing

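The 5 members past the threshold kept their direction and stayed past it in all 17 fits at that threshold: Ccr2 ran from -1.66 to -1.33 on the log2 scale, Cxcr4 from -0.74 to -0.59, Ccr1 from 0.74 to 0.85, Ackr1 from 2.58 to 2.81 and Ackr2 from 1.063 to 1.51. Cx3cr1 was just short of the threshold and passed it with DESeq2 (0.43), filterByExpr (0.43), no filter (0.44) and reads of both strands (0.44), and when WT_11, WT_8 or WT_E was left out; with any single heart left out it ran from 0.37 to 0.50. The number of genes past the threshold moved more. With DESeq2 2354 genes were lower, and with a fold change of at least 2 beside the threshold 535 were higher and 90 lower; of the members, Ccr1 and Cxcr4 are under that fold. With each heart left out in turn, 1288 to 2887 genes were higher and 414 to 2163 lower: without KO_A 2163 were lower, and without KO_14, KO_15, KO_D, WT_6, WT_7, WT_8 or WT_H between 414 and 847. The cause was not tested. The median log2 ratio of Ccr1 to macrophage genes, 0.10 higher in Pde2A-/- hearts, was at -0.33 with Ptprc and -0.05 with Adgre1 as denominator, with overlap in each, and that of Cx3cr1 moved from -0.27 to -0.73 with Ptprc. No paired analysis was possible because the genotypes share no replicate names. Cxcr6, Ccr8, Cxcl5 and Cxcl11 are limited by depth, with too few reads for a fold change, and the precision of the others is set by the spread between 5 and 6 hearts.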
